A study of Mus musculus with 12 samples.

Results

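The expression of 7 genes of cholesterol metabolism was followed in mouse testis: Hmgcs1, Idi1, Fdps, Sqle, Lss, Cyp51 and Srebf2. They were chosen by gene symbol from the annotation of an Illumina mouse bead array, and a gene was read from its probe of highest mean over all arrays. A probe was found for 6 of the 7 among 19057 genes with a named probe. Hmgcs1 had no probe in the annotation used here, so no value can be given for it. The genes had been grouped under the name of cholesterol synthesis and uptake, but none of them is a receptor or carrier for uptake: 6 encode enzymes of synthesis and Srebf2 encodes their regulator.

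Whole testes came from wild-type (WT) mice and from Topaz1-/- (KO) mice, both of the C57Bl/6N strain, at 15 or 20 days after birth (P15 and P20). The series title presents Topaz1 as a germ cell factor needed for meiosis in males. Each of the 4 groups (WT P15, KO P15, WT P20, KO P20) held 3 biological repeats with 1 array each, 12 arrays in all. The labels give no promoter, Cre driver or cell type for the deletion, and 0 probes carried the name Topaz1, so the genotype labels were not checked against its transcript.

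Cholesterol is built from acetyl-CoA through mevalonate. Hmgcs1 encodes the cytosolic HMG-CoA synthase, Idi1 the isomerase of the isoprene unit, Fdps the farnesyl diphosphate synthase, Sqle the squalene epoxidase, Lss the lanosterol synthase and Cyp51 the lanosterol demethylase. SREBP2, the product of Srebf2, is cut from its membrane anchor when sterols are low and then raises the transcription of these enzymes. In the testis Leydig cells turn cholesterol into androgens, the product of CYP51 is a sterol also called meiosis-activating sterol, and in rodent germ cells after meiosis CREM, a cAMP-responsive factor, is known to drive Cyp51.

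RefSeq promoter windows (assembly GRCm38.p6, 250 bases before to 50 bases after the start of the gene) were at hand for 5 of the 7 genes, not for Sqle or Fdps. The windows of Srebf2, Lss and Cyp51 are shown because the age and genotype results below turn on these genes, and that of Hmgcs1 because it alone held the longer sterol element searched. Capitals mark matches to 4 motifs, on either strand: the sterol regulatory element TCACNCCAC, its shorter form TCACCCCA, the CCAAT box, and TGACG, the core of the cAMP response element. The shorter form was added after the windows had been read, and it overlaps the longer one in Hmgcs1.
Srebf2, chr15:82147019-82147318, plus strand: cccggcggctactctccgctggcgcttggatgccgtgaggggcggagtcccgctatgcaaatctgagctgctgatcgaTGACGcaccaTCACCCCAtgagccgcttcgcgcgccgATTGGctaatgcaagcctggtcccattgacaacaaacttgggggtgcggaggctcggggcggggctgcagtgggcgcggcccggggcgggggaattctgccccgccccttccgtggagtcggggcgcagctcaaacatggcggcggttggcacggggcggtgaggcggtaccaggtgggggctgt
Lss, chr10:76531355-76531654, plus strand: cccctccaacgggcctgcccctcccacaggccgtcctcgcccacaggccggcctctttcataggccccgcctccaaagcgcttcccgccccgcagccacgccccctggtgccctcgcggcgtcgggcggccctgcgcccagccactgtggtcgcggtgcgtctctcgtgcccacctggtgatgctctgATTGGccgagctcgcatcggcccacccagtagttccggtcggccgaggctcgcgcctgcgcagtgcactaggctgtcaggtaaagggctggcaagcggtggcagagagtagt
Cyp51, chr5:4104648-4104947, minus strand: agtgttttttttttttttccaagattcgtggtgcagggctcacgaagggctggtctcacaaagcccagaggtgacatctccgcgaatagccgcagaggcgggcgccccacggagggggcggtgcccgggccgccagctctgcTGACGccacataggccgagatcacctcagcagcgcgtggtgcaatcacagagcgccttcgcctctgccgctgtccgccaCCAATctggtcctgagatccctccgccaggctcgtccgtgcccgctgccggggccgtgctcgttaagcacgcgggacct
Hmgcs1, chr13:119690101-119690400, plus strand: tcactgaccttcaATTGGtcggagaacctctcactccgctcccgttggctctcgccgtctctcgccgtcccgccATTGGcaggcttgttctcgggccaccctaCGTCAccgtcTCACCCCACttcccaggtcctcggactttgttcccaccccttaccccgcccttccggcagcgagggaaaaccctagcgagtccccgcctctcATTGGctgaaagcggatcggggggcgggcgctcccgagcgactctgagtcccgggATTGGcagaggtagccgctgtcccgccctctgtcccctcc

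With the start of the gene counted as base 1, the match to TCACNCCAC in Hmgcs1 began at base -137, and 1.22% of 27025 promoter windows held this motif. Srebf2 held the shorter form at base -162, a form found in 1.47% of the windows. TGACG, present in 21.0% of the windows, began at base -172 in Srebf2, -108 in Cyp51 and, on the other strand, -147 in Hmgcs1. All 5 windows, that of Idi1 included, held a CCAAT box on 1 of the strands, against 37.9% of all windows, with 4 matches in Hmgcs1. These are matches of letters in a window, and no binding was measured.

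Values below are log2(intensity + 50) after quantile normalization over the 12 arrays, and a change is the difference of 2 group means on that scale with its standard error (SE). The scale understates changes of dim probes. Levels of different probes are not comparable, so each gene is compared with itself. The test was limma over all 45281 probes with Benjamini-Hochberg adjustment over all of them, and a gene passed when its adjusted p was under 0.05. The estimated background of an array lay between 7.49 and 7.59, and 47.9% to 51.9% of the probes of an array were above it. The probes of Fdps, Sqle, Lss, Cyp51 and Srebf2 were above background on all 12 arrays. That of Idi1 was above it on 7 of 12, so its values lie at the edge of what the array measures.

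Some arrays stood apart, over all probes or in a marker gene. The first principal component (81.2% of the variance) divided P15 from P20. On the second (6.13%) KO P15 replicate 1 scored 7.56, within the range of WT P15 (5.55 to 11.4), while KO P15 replicates 2 and 3 scored -14.9 and -20.3. The score of WT P20 replicate 1 on the first was 31.3, and those of WT P20 replicates 2 and 3 were 42.7 and 51.5. KO P20 replicates 1 and 3 carried the epididymis gene Defb2 at 10.83 and 11.14, against 7.50 on replicate 2. Among WT P20 arrays 1 also had Defb2 above background, at 8.62. Of 8 epididymis markers, 5 were below background on all 12 arrays. Calls that change without the arrays numbered here are given with and without them.

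Between genotypes, none of the 6 measured genes passed at P15 or P20. At P15, 0 of 6 passed, where 0.00442% of all probes were called (2 probes), and 2 of the 6, Sqle and Cyp51, had an unadjusted p under 0.05, as did 3436 of the 45281 probes. At P20, 0 of 6 passed, where 1.04% of all probes were called (472 probes), and 1 of the 6, Idi1, had an unadjusted p under 0.05, as did 5412 of the 45281 probes. The log2 change was negative in KO for 6 of 6 genes at P15, with a median of -0.22 beside 0.00136 over all probes. It was negative for 4 of 6 at P20, with a median of -0.17 beside 6.18e-05 over all probes. These medians of 6 genes moved with single arrays: that at P15 was -0.39 without WT P15 replicate 3, and that at P20 was -0.10 without KO P20 replicate 1 and -0.27 without KO P20 replicate 3. With the mean over all probes of a gene the P15 median was -0.10. With 3 arrays per group the test has limited reach, and a p above the threshold does not show equal levels. The values of every array are in the plot of the 6 genes by group.

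**Figure D1:**
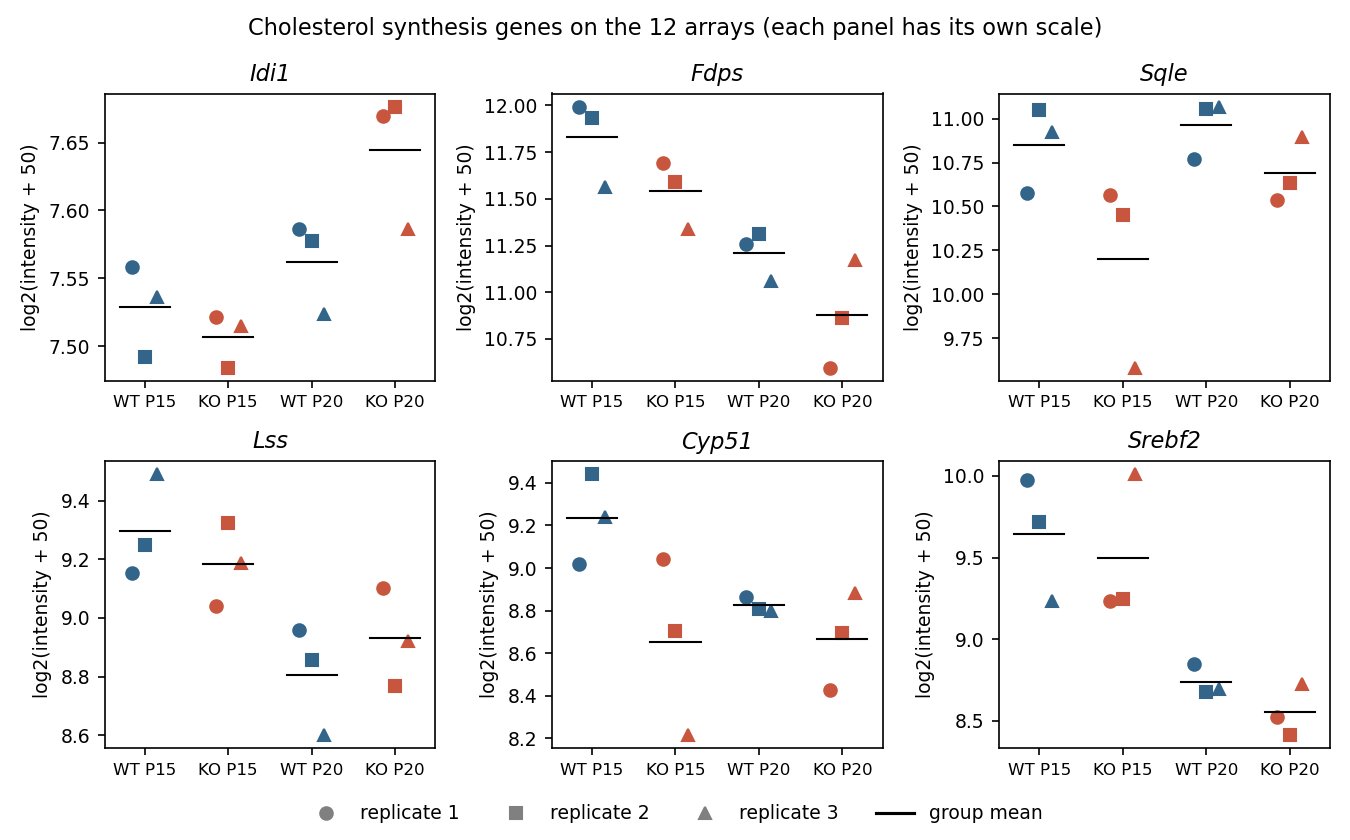
Each panel shows 1 gene on its own log2(intensity + 50) axis, with WT in blue and KO in red, the marker shape giving the replicate and the black line the mean of 3 arrays. Srebf2 and Fdps are lower at P20 than at P15 in both genotypes, while KO P15 replicate 3 has the lowest P15 values of Sqle and Cyp51.

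Srebf2, the regulator, read 9.97, 9.72 and 9.24 on WT P15 replicates 1, 2 and 3, and 9.24, 9.25 and 10.01 on those of KO P15. The genotypes overlapped fully at P15, and 1 KO array was the highest of the 6. The change in KO was -0.14 ± 0.22 (SE, limma adjusted p = 0.949), with a 95% interval of -0.64 to 0.35. It was -0.01 without KO P15 replicate 1 and -0.40 without KO P15 replicate 3 (limma adjusted p = 0.770 for the latter). At P20 the WT arrays read 8.85, 8.68 and 8.69 and the KO arrays 8.52, 8.41 and 8.73. The groups overlapped through KO P20 replicate 3, and the change was -0.19 ± 0.22 (interval -0.68 to 0.31, limma adjusted p = 0.837). The second Srebf2 probe, also above background on all arrays, had changes of 0.12 and -0.03 and did not pass at either age.

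Idi1, the isomerase, stayed near background throughout. Its WT arrays read 7.56, 7.49 and 7.54 at P15 and 7.59, 7.58 and 7.52 at P20, and its KO arrays 7.52, 7.48 and 7.51 at P15 and 7.67, 7.68 and 7.59 at P20. At P20 the lowest KO value lay just above the highest WT value, and the change was 0.08 ± 0.03 (SE, limma adjusted p = 0.365). At P15 the groups overlapped and the change was -0.02 ± 0.03 (limma adjusted p = 0.948).

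Fdps, which makes farnesyl diphosphate, read 11.99, 11.93 and 11.56 in WT and 11.69, 11.59 and 11.34 in KO testes at P15. The KO values ran lower but overlapped those of WT through WT replicate 3, and the change was -0.29 ± 0.16 (SE, interval -0.64 to 0.06, limma adjusted p = 0.724). At P20 it read 11.26, 11.31 and 11.06 in WT and 10.60, 10.86 and 11.17 in KO testes. Here KO replicate 3 lay among the WT arrays, and the change was -0.33 ± 0.16 (interval -0.69 to 0.02, limma adjusted p = 0.457). A second Fdps probe, also above background on all arrays, had changes of 0.01 at P15 and -0.05 at P20 and did not pass at either age.

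Sqle, which oxidises squalene, had the most negative change of the 6 at P15. Its WT P15 arrays read 10.58, 11.05 and 10.92 and its KO P15 arrays 10.57, 10.45 and 9.58. All 3 KO arrays lay below all 3 WT arrays, though KO replicate 1 and WT replicate 1 were nearly level and KO replicate 3 was far below the rest. The change was -0.65 ± 0.23 (SE, interval -1.17 to -0.13, limma adjusted p = 0.573). A second Sqle probe gave -0.48 ± 0.14 with the KO arrays again below the WT arrays (limma adjusted p = 0.484), and the other probe of Sqle was below background on all 12 arrays. Without KO P15 replicate 3 the change of the first probe was -0.34 (limma adjusted p = 0.771), and without KO P15 replicate 1 it was -0.83 (limma adjusted p = 0.175). At P20 Sqle read 10.77, 11.05 and 11.07 in WT and 10.54, 10.64 and 10.90 in KO testes, overlapping, with a change of -0.27 ± 0.23 (interval -0.79 to 0.25, limma adjusted p = 0.744).

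Lss, which closes the sterol ring system, read 9.15, 9.25 and 9.49 in WT and 9.04, 9.32 and 9.19 in KO testes at P15. At P20 it read 8.96, 8.86 and 8.60 in WT and 9.10, 8.77 and 8.92 in KO testes. The genotypes overlapped at both ages. The changes were -0.11 ± 0.12 at P15 (SE, interval -0.39 to 0.16, limma adjusted p = 0.902) and 0.12 ± 0.12 at P20 (interval -0.15 to 0.40, limma adjusted p = 0.793). Of the other Lss probes, 1 was above background on 11 of 12 arrays and 1 on 0.

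Cyp51, the lanosterol demethylase, read 9.02, 9.44 and 9.24 in WT and 9.04, 8.71 and 8.21 in KO testes at P15. KO replicate 1 lay within the WT range, and the other 2 KO arrays lay below it. The change was -0.58 ± 0.19 (SE, interval -1.004 to -0.16, limma adjusted p = 0.544). It was -0.36 without KO P15 replicate 3 (limma adjusted p = 0.760) and -0.77 without KO P15 replicate 1 (limma adjusted p = 0.0955). At P20 it read 8.86, 8.81 and 8.80 in WT and 8.42, 8.70 and 8.88 in KO testes. WT arrays were close together there, KO arrays spread to both sides, and the change was -0.16 ± 0.19 (interval -0.58 to 0.27, limma adjusted p = 0.842).

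The genotype effect at P20 less that at P15 was tested as a term of its own. Of the 6 genes 0 passed, where 0.0552% of all probes were called (25 probes), and 0 of the 6 had an unadjusted p under 0.05, beside 3202 of the 45281 probes. The limma adjusted p ran from 0.710 to 0.992. The 2 genotype comparisons share no arrays, and the plot of genotype changes sets them side by side.

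**Figure D2:**
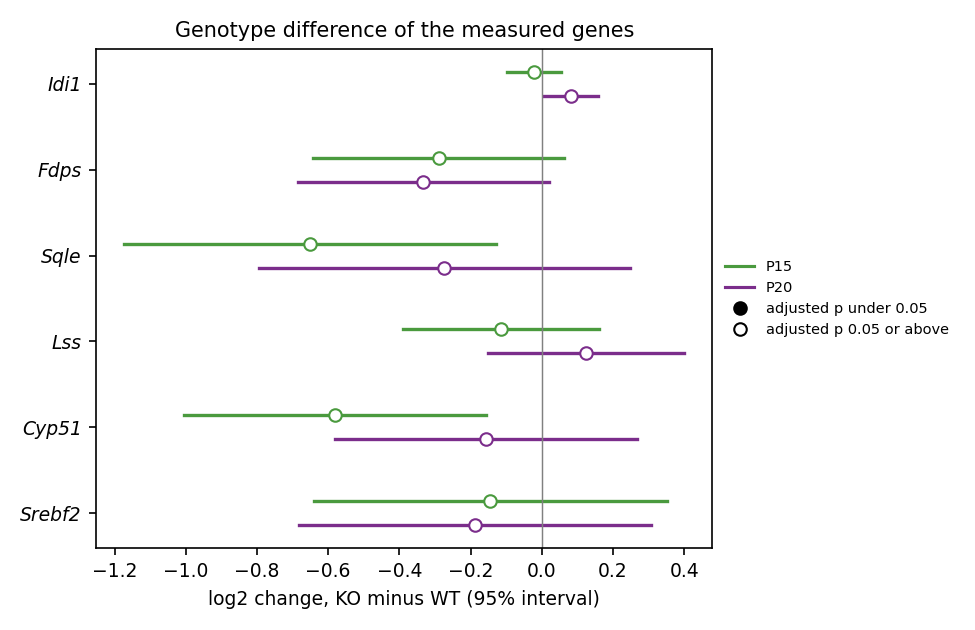
The horizontal axis is the log2 change, KO minus WT, of each gene at P15 (green) and P20 (purple), with lines for 95% intervals from limma and open points for an adjusted p of 0.05 or above. All points are open, and at P15 the intervals of Sqle (-1.17 to -0.13) and Cyp51 (-1.004 to -0.16) lie below 0 before adjustment over all probes.

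Markers of other testis cells varied between the P15 arrays. Cyp17a1, the Leydig cell enzyme of androgen synthesis, read 8.23, 12.11 and 11.44 on WT P15 replicates 1, 2 and 3, and 12.12, 12.40 and 7.98 on those of KO P15. The array lowest in Cyp17a1 in each genotype, WT replicate 1 and KO replicate 3, was also the lowest of its group in Sqle and in Cyp51. Insl3, a Leydig cell hormone, was likewise lowest on these arrays (10.96 and 10.08). They were also the lowest of their genotype in the spermatocyte marker Ldhc (9.89 and 9.66). The same held for the first principal component over all probes (-55.8 and -56.6). Of 7 measured Leydig markers 4 lay above background on every array of at least 1 group, while Hsd3b6 was below it on all 12 arrays. Their summed intensity ran from 3003 to 7752 over WT P15, 1990 to 9583 over KO P15, 4372 to 5235 over WT P20 and 3748 to 4183 over KO P20 arrays. Without both low arrays, a setting chosen after seeing the data, the P15 changes were -0.48 for Sqle and -0.47 for Cyp51 (limma adjusted p = 0.774 and 0.832). The parts of Leydig and germ cell RNA in these values were not tested. In whole testis, fewer cells of a type and less RNA per cell cannot be told apart.

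On its first probe, Srebf2 was highest on 2 of the P15 arrays low in a spermatocyte marker. Ldhc, the germ cell lactate dehydrogenase, read 9.89, 11.35 and 12.86 in WT and 12.44, 10.07 and 9.66 in KO testes. The arrays with the least Ldhc, KO replicate 3 and WT replicate 1, had the most Srebf2 (10.01 and 9.97), and those with the most Ldhc, WT replicate 3 and KO replicate 1, both read 9.24. KO replicate 2, low in Ldhc with 9.25 for Srebf2, did not follow this order. The second Srebf2 probe read 8.39, 8.56 and 8.33 in WT and 8.40, 8.45 and 8.78 in KO testes, so KO replicate 3 was again the highest array while WT replicate 1 was not high. The summed intensity of 8 spermatocyte markers, of which Sycp3 was below background on all arrays, ran from 7776 to 27000 over WT P15 and 8810 to 23710 over KO P15 arrays. With 6 arrays of 2 genotypes this is given as a description.

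**Figure D3:**
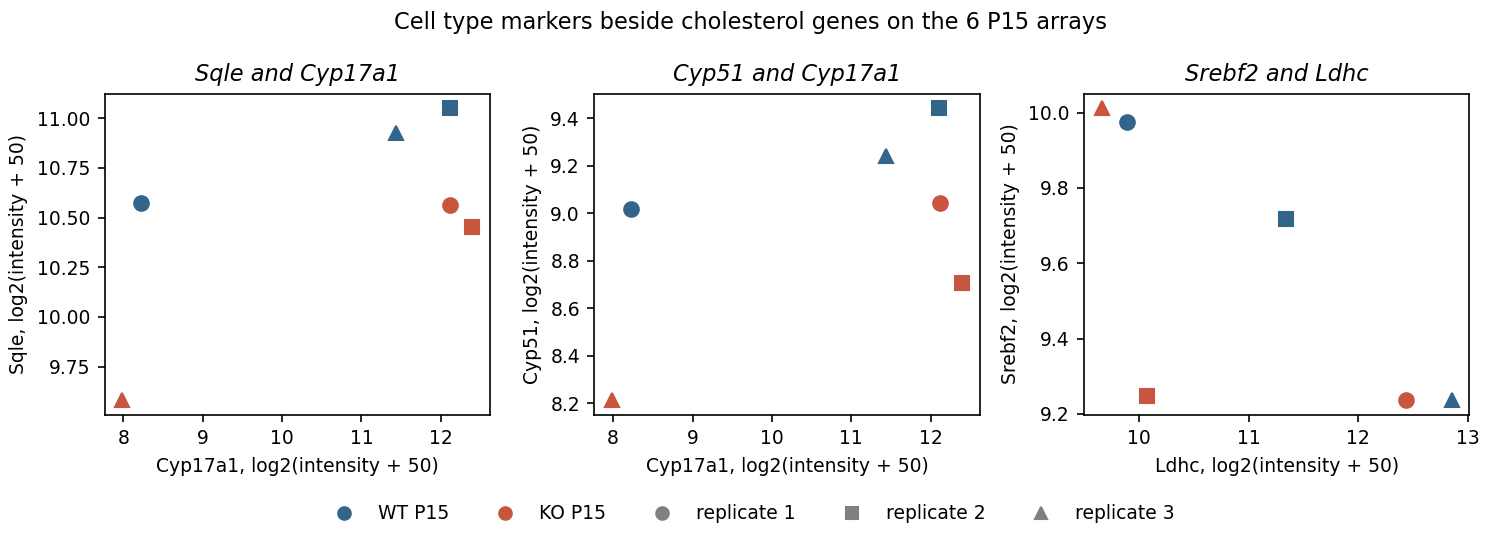
Each point is 1 of the 6 P15 arrays (WT blue, KO red, shape for replicate), with a marker on the horizontal and a cholesterol gene on the vertical axis, both as log2(intensity + 50). WT replicate 1 and KO replicate 3 are low in Cyp17a1 (8.23 and 7.98) and lowest of their genotype in Sqle and Cyp51, and both are low in Ldhc and high on the plotted probe of Srebf2.

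Some of the genes passed between the ages. From P15 to P20 in WT testes 0 of 6 genes rose and 3 fell: Srebf2, Fdps and Lss. Over all probes 8.28% rose and 11.8% fell, and among probes above background in a whole group 23.4% fell. In KO testes 1 of 6 rose, Idi1, and 2 fell, Srebf2 and Fdps, where 10.1% of all probes rose, 15.5% fell and 30.4% of those above background fell. With 6 genes these counts are a description, and falls were common on these arrays under quantile normalization. Under cyclic loess more probes rose than fell, 4890 against 3571 in WT and 5149 against 4656 in KO testes. Over all probes the median change was -0.01 in each genotype. Over those above background in a whole group it was -0.07 in WT and -0.08 in KO testes. For the 6 genes the median was -0.45 in WT and -0.12 in KO testes. The KO median moved between -0.23 without KO P15 replicate 3 and -0.07 without KO P15 replicate 2, was -0.19 without KO P20 replicates 1 and 3, and was -0.02 under cyclic loess and with the mean over a gene's probes. The last of these gave -0.27 in WT testes.

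Srebf2 fell 1.87-fold in WT testes, with a log2 change of -0.90 ± 0.22 (SE, limma adjusted p = 0.0157), from 9.64 ± 0.37 (SD, n = 3) to 8.74 ± 0.10. In KO testes it fell 1.92-fold, with a log2 change of -0.94 ± 0.22 (SE, limma adjusted p = 0.00944), from 9.50 ± 0.44 (SD, n = 3) to 8.55 ± 0.16. All P20 arrays lay below all P15 arrays of their genotype, and the P15 arrays were the more scattered. The second probe fell too, with a log2 change of -0.41 in WT and -0.57 in KO testes (limma adjusted p = 0.00903 and 0.00101). In order of mean the groups ran WT P15, KO P15, WT P20 and KO P20 on the first probe. On the second, KO P15 was highest (8.55 against 8.42 in WT P15). The genotypes did not differ beyond their spread at either age.

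Fdps fell 1.54-fold in WT testes, with a log2 change of -0.62 ± 0.16 (SE, limma adjusted p = 0.0186), from 11.83 ± 0.23 (SD, n = 3) to 11.21 ± 0.13. In KO testes it fell 1.58-fold, with a log2 change of -0.66 ± 0.16 (SE, limma adjusted p = 0.0101), from 11.54 ± 0.18 (SD, n = 3) to 10.88 ± 0.29. Again no P20 array reached the lowest P15 array of its genotype. The second Fdps probe, dimmer, fell with a log2 change of -0.21 in WT and -0.27 in KO testes (limma adjusted p = 0.0492 and 0.0110). On the first Fdps probe the order of the group means was that of the first Srebf2 probe. On the second Fdps probe KO P15 (8.04) lay just above WT P15 (8.03).

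Lss fell 1.41-fold in WT testes, with a log2 change of -0.49 ± 0.12 (SE, limma adjusted p = 0.0172), from 9.30 ± 0.17 (SD, n = 3) to 8.81 ± 0.19. In KO testes its change was -0.25 ± 0.12 (limma adjusted p = 0.189), from 9.18 ± 0.14 (SD, n = 3) to 8.93 ± 0.17, with 1 P20 array (9.10) above the lowest P15 array (9.04). The age changes of WT and KO were not shown to differ, since their difference is the term tested above (limma adjusted p = 0.864). The Lss fall was seen on 1 probe: the other one measured, near background, had 0.08 ± 0.05 in WT and -0.00475 ± 0.05 in KO testes (limma adjusted p = 0.338 and 0.967).

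Cyp51 had a change of -0.41 ± 0.19 in WT testes (SE, limma adjusted p = 0.186), where its P15 and P20 arrays did not overlap, and of 0.01 ± 0.19 in KO testes, or 0.21 without KO P15 replicate 1 and -0.21 without KO P15 replicate 3. Sqle had 0.11 ± 0.23 in WT and 0.49 ± 0.23 in KO testes (limma adjusted p = 0.833 and 0.178). The second Sqle probe passed as a rise in KO testes, at 0.45 ± 0.14 (limma adjusted p = 0.0402). Idi1 rose in KO testes (log2 0.14 ± 0.03, limma adjusted p = 0.0119), at least 1.08-fold. This is a bound, because 0 of 3 KO P15 arrays measured it above background, and it was taken against the lowest probe signal above background on each array. Such bounds, here and below, are taken from group means and leave out sampling error. The lower 95% limit of the Idi1 log2 change was 0.06. In WT testes its change was 0.03 ± 0.03.

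Leaving out single arrays moved the age calls in WT testes. Without WT P15 replicate 1 or replicate 2, Lss alone passed in WT testes, and without WT P20 replicate 3 none of the 6 did. In these fits Srebf2 had changes of -0.74, -0.87 and -0.88 and Fdps of -0.54, -0.57 and -0.55. Lss had -0.39 without WT P20 replicate 3. Its call also ended without WT P15 replicate 3 (-0.40, limma adjusted p = 0.0615), and that of Srebf2 without WT P20 replicate 2 (-0.87, limma adjusted p = 0.0536). Without WT P15 replicate 1 and KO P15 replicate 3 together, Fdps did not pass in WT testes (-0.54, limma adjusted p = 0.0621). Leaving out KO P20 replicates 1 and 3 ended the Srebf2 call in KO testes at -1.09 (limma adjusted p = 0.0705), with the 1 remaining array assumed to vary like the other groups. Leaving out KO P15 replicate 1 and WT P20 replicate 1 ended the Fdps call in KO testes at -0.59 (limma adjusted p = 0.0527).

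**Figure D4:**
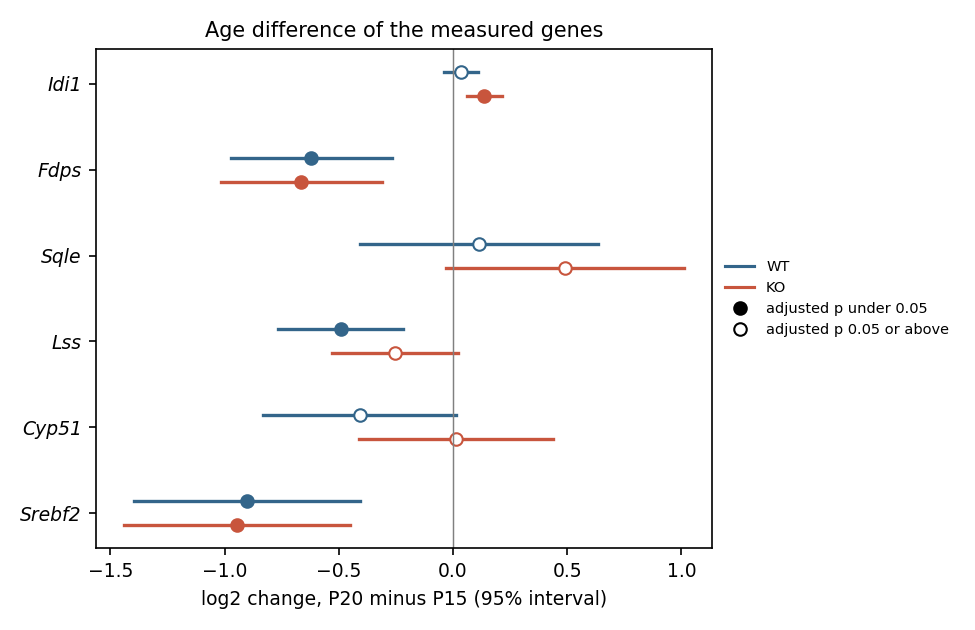
The horizontal axis is the log2 change, P20 minus P15, in WT (blue) and KO (red) testes, with 95% intervals from limma, filled points for an adjusted p under 0.05 and open points otherwise. Srebf2 and Fdps are filled and below 0 in both genotypes, Lss in WT alone and Idi1 is filled above 0 in KO.

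The tissue itself changed between these ages. The summed intensity of 11 Sertoli cell markers ran from 78822 to 86000 over WT P15, 74418 to 80630 over KO P15, 62141 to 65068 over WT P20 and 49726 to 55245 over KO P20 arrays. That of 8 spermatogonial markers ran from 6722 to 8700, 6423 to 9013, 4238 to 4848 and 3573 to 3646 in the same order. These markers did not all fall: 3 fell and 1 rose in WT testes, and 5 fell and 1 rose in KO testes. The rise was that of Id4, with means going from 8.01 to 9.00 in WT and from 8.16 to 9.44 in KO testes. Spermatocyte markers ran at 81551 to 94636 over WT P20 and 99710 to 103737 over KO P20 arrays, far above their P15 values. Spermatid markers ran from 1183 to 1223, 1140 to 1179, 1200 to 1622 and 1091 to 1138, and Prm1 was below background on all 12 arrays. Macrophage markers ran from 4021 to 4690 over WT P15, 3029 to 3898 over KO P15, 2777 to 3017 over WT P20 and 2316 to 2563 over KO P20 arrays. The macrophage sum at P20 differed mainly through Lyz2, with means of 10.27 in WT and 9.49 in KO testes. Of the 6 macrophage markers 3 were higher and 3 lower in KO testes at P20, and Cd74 had means of 8.06 in WT and 8.36 in KO testes. Adipocyte markers ran from 914 to 994, 893 to 912, 920 to 994 and 1181 to 1320, epididymis markers from 949 to 998, 949 to 967, 960 to 1235 and 997 to 3430, and erythroid markers from 5373 to 12042, 7582 to 15815, 5613 to 11370 and 3212 to 18877, in the order WT P15, KO P15, WT P20 and KO P20. The adipocyte sum at P20 differed mainly through Adipoq, with means of 7.62 in WT and 8.89 in KO testes, while Fabp4 was below background on all 12 arrays and Plin1 above it on 1 array of each P20 group. The part of these shifts in the age changes of the cholesterol genes was not tested.

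Other genes of cholesterol metabolism were taken from 4 lists by role, of which 45 of 55 written genes had a named probe. Between genotypes 0 of the 45 passed at P15, where 0.00442% of all probes were called, and 1 at P20, where 1.04% were. Of 22505 probes above background in a whole group, 331 were higher and 140 lower in KO testes at P20. With 45 genes a count of 1 is a description. The gene was Ch25h, the cholesterol 25-hydroxylase, which read 7.46, 7.44 and 7.45 on WT and 7.80, 7.66 and 7.71 on KO P20 arrays. It rose by 0.28 ± 0.04 in KO testes (SE, limma adjusted p = 0.0132), at least 1.14-fold since 0 of 3 WT P20 arrays were above background. The call ended without WT P20 replicate 2 (0.27 ± 0.05, limma adjusted p = 0.0631) and without KO P20 replicates 1 and 3 (0.21 ± 0.05, limma adjusted p = 0.195), where 0 of the 45 passed. The size of a change this near background rested on the background correction, and with normexp it was 0.61 at an offset of 50 and 1.03 at an offset of 16. For the difference between ages 0 of the 45 passed, where 0.0552% of all probes were called.

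Insig1, which holds the SREBP escort SCAP in the endoplasmic reticulum and is itself an SREBP target, read 8.67, 8.98 and 8.84 in WT and 8.62, 8.39 and 8.34 in KO testes at P15. At P20 it read 8.42, 8.43 and 8.32 in WT and 8.07, 8.13 and 8.09 in KO testes. The KO arrays lay below the WT arrays at both ages, with changes of -0.38 ± 0.09 and -0.30 ± 0.09 (SE), and neither passed (limma adjusted p = 0.393 and 0.158).

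The genes of highest mean in each list did not pass between genotypes either. Lbr, a sterol reductase of the nuclear envelope, had 0.13 ± 0.16 at P15 and 0.37 ± 0.16 at P20 (SE, limma adjusted p = 0.913 and 0.383). Msmo1, the methyl sterol oxidase that acts after Cyp51, had -0.40 ± 0.22 and -0.22 ± 0.22 (limma adjusted p = 0.730 and 0.800). Insig2, the close relative of Insig1, had -0.44 ± 0.17 and -0.14 ± 0.17 (limma adjusted p = 0.603 and 0.845). Mbtps1, the first protease to cut SREBPs, had -0.27 ± 0.11 and -0.33 ± 0.11 (limma adjusted p = 0.600 and 0.206), with KO below WT arrays at both ages. Npc1, which moves cholesterol out of lysosomes, had 0.47 ± 0.20 and 0.05 ± 0.20 (limma adjusted p = 0.634 and 0.962). Stard3, a sterol carrier of late endosomes, had 0.01 ± 0.10 and -0.40 ± 0.10 (limma adjusted p = 0.994 and 0.104). Cyp27a1, the mitochondrial sterol 27-hydroxylase, had 0.25 ± 0.14 and -0.29 ± 0.14 (limma adjusted p = 0.732 and 0.458). Apoe, the carrier of cholesterol between cells, had 0.01 ± 0.30 and -0.13 ± 0.30 (limma adjusted p = 0.998 and 0.926).

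With age, 2 of the 45 rose and 16 fell in WT testes, and 3 rose and 20 fell in KO testes, beside the background shares given above. The synthesis list had 0 rises and 4 falls of 13 in each genotype, with a median of -0.13 in WT and -0.19 in KO testes. Ebp, the sterol isomerase, read 10.66, 10.41 and 10.20 at P15 and 9.76, 9.92 and 9.57 at P20 in WT testes, falling with a log2 change of -0.67 ± 0.12 (SE, limma adjusted p = 0.00233). In KO testes it fell with a log2 change of -0.63 ± 0.12. Mvd, the mevalonate diphosphate decarboxylase that precedes Idi1, fell with a log2 change of -0.73 ± 0.13 in WT and -0.57 ± 0.13 in KO testes (limma adjusted p = 0.00268 and 0.00802). The other falls were Hsd17b7 (-0.52) and Nsdhl (-0.38) in WT testes, both of the demethylation steps after Cyp51, and Dhcr7 (-0.48) and Mvk (-0.19) in KO testes, which act at the last and an early step. Mvk was near background at P20, above it on 2 of 3 KO arrays.

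The control list held the one large rise. Crem read 7.92, 8.21 and 8.61 on WT P15 and 10.38, 10.61 and 10.89 on WT P20 arrays, and 8.60, 8.00 and 7.91 on KO P15 and 10.17, 10.45 and 10.84 on KO P20 arrays. It rose 5.21-fold in WT and 4.97-fold in KO testes (log2 2.38 ± 0.24 and 2.31 ± 0.24, SE, limma adjusted p = 7.85e-05 and 5.89e-05). Other Crem probes above background had smaller changes, 0.19 to 0.78 in WT testes, and the probes were not assigned to isoforms. Cyp51 did not pass as a rise in either genotype over the same days. It was named above as a target of CREM in germ cells after meiosis, and a link between Crem and Cyp51 was not tested here. Scap, the escort of SREBPs, fell with a log2 change of -0.74 ± 0.15 in WT and -0.85 ± 0.15 in KO testes (limma adjusted p = 0.00470 and 0.00143). Mbtps1 fell with a log2 change of -0.70 ± 0.11 and -0.76 ± 0.11 (limma adjusted p = 0.00101 and 0.000384), and Insig1 with changes of -0.44 ± 0.09 and -0.36 ± 0.09 (limma adjusted p = 0.00459 and 0.0104). Nr1h3, which encodes the oxysterol receptor LXR alpha, rose in WT testes (0.45 ± 0.11), and Insig2 rose in KO testes (0.69 ± 0.17). Mbtps2 (-0.22), the second of the SREBP proteases, and Srebf1 (-0.20), the SREBP of fatty acid synthesis, fell in KO testes, each near background at P20.

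Of 11 uptake and transport genes 0 rose and 4 fell in WT testes, and 0 rose and 7 fell in KO testes, with medians of -0.30 and -0.37. Stard3 fell with a log2 change of -0.40 ± 0.10 in WT and -0.81 ± 0.10 in KO testes (SE, limma adjusted p = 0.0163 and 0.000166). Log2 changes in WT and KO testes were -0.53 and -0.58 for Stard5, a cytosolic sterol carrier, and -0.47 and -0.40 for Lrp8, a lipoprotein receptor. Those of Scarb1, the HDL receptor, were -0.24 and -0.32, and all of these passed. In KO testes Npc1 (-0.997 ± 0.20) and Lipa, the lysosomal lipase (-0.63 ± 0.06), also fell. Of 12 efflux, storage and oxysterol genes 0 rose and 5 fell in WT testes and 1 rose and 4 fell in KO testes, with medians of -0.16 and -0.15. Apoe fell 2.14-fold in WT and 2.37-fold in KO testes (-1.10 ± 0.30 and -1.25 ± 0.30, limma adjusted p = 0.0269 and 0.0110). Cyp27a1 fell with a log2 change of -0.56 ± 0.14 and -1.10 ± 0.14, and Nceh1, a cholesteryl ester hydrolase, with changes of -0.55 and -0.35. Abcg1, a sterol exporter, fell to below background at P20, by at least 1.07-fold in WT and at least 1.09-fold in KO testes. Lcat, which esterifies cholesterol in lipoproteins, fell in WT testes (-0.13), where 1 of 3 P20 arrays was above background. Ch25h was the rise in KO testes (0.19).

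**Figure D5:**
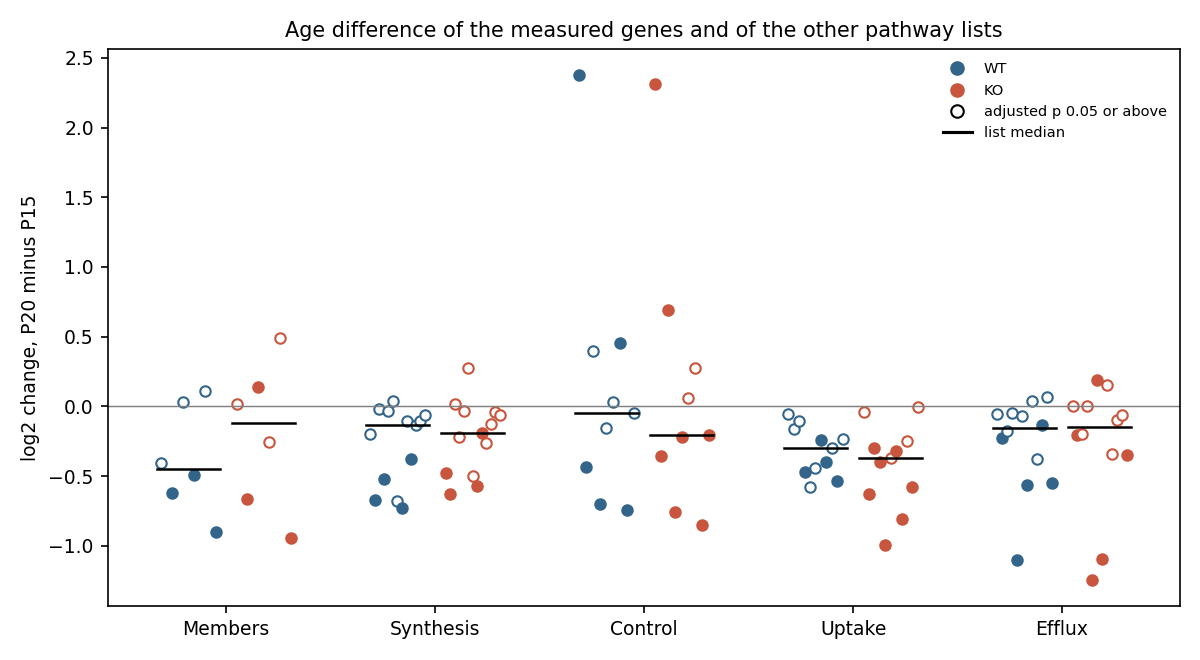
The vertical axis is the log2 change, P20 minus P15, of each measured gene in WT (blue) and KO (red) testes, for the 6 genes (Members) and the 4 lists by role, with filled points for an adjusted p under 0.05, open points otherwise and black lines for list medians. Crem stands alone near 2.38 and 2.31, and most filled points of every list lie below 0.

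For each gene the 2 genes of most similar course were sought among 12052 genes above background on all 3 arrays of at least 1 group, by the root mean square difference of the 12 log2 values after each gene's own mean was taken off. Srebf2 was nearest to Sh3glb2 (0.104) and Trim35 (0.109), against its own root mean square spread of 0.531. Fdps was nearest to Wsb2 (0.0834) and Smim20 (0.0843), with a spread of 0.398. Cyp51 was nearest to Rars (0.110) and Ttc33 (0.128), with a spread of 0.317. Sqle was nearest to Ahcyl1 (0.143) and Gtf2e2 (0.155), with a spread of 0.393. Lss was nearest to Fam76b (0.0912) and Arglu1 (0.0948), with a spread of 0.239. Idi1 was nearest to Hacl1 (0.0253) and Notch2 (0.0323), with a spread of 0.0599. Like Idi1 these lie near background, Notch2 being above it on 4 of 12 arrays and on 0 at P15. Notch2 entered the search through KO P20 alone, the group where Idi1 was highest, so its likeness to Idi1 carries no weight. All points share the same 12 arrays, no nearest gene was another cholesterol gene of the 6, which were left out of the search, and likeness of course says nothing of function.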

How the data were processed

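RNA of 12 whole testes was measured on 1 Illumina bead array each, 3 per group. Per the labels' protocols total RNA was column-purified, treated with DNase I and labelled with biotin, and per the submitters' processing notes BeadStudio was used, with no version stated. The deposited tables hold linear intensity values, 1 non-normalized and 1 processed by the authors, and 0 columns belonged to other samples. Quantile normalization of the non-normalized intensities gave the authors' processed values to within 0.0124 on the log2 scale. The deposited intensities carry no detection p or control probes here, so no background was subtracted from them.

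The non-normalized intensities were quantile-normalized, 50 was added and log2 taken. Background was the mode of an array's log2 values plus 1.645 standard deviations of those below it. All 45281 probes of the 4 group means were fitted by limma 3.58.1 under R 4.3.3 (8 residual and 2.14 prior degrees of freedom), two-sided, and the fit was tested on simulated data. Of the probes, 34885 had 1 gene symbol in the array's annotation, 18 several and 10378 were not listed there, which leaves those unnamed. Array medians were 128.2 to 143.4, 0 pairs of arrays were identical, and 3 arrays per group limit the precision. Replicate numbers were not treated as pairs in the main fit. Deviations of same-numbered WT and KO arrays correlated at -0.313, -0.0326 and -0.303 at P15 and 0.188, -0.0640 and 0.0378 at P20. Those of differently numbered arrays ran from -0.0618 to 0.342 at P15 and -0.203 to 0.226 at P20. With 3 arrays per group, each centred on its group mean, these values cannot decide on pairing.

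The genes, lists and tests were chosen with earlier results of these data known. Pathway genes were named when they passed, up to 6 per list and comparison by size, or else the 2 of highest mean of a list, with Insig1 always named. Some genes are not reported here. Alternatives were the authors' values, cyclic loess, 75th percentile scaling, normexp with 2 offsets, no offset, dim probes removed, an intensity trend, a replicate block, the compared groups alone, the mean over a gene's probes, and arrays left out. Promoter windows are from RefSeq.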

Additional observations from a re-analysis of the deposited data

Results flagged for a closer look

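Lipa, the lysosomal acid lipase, was on opposite sides of WT at the 2 ages. At P15 it read 8.35, 8.52 and 8.52 in WT and 8.63, 8.73 and 8.82 in KO testes, and at P20 8.28, 8.30 and 8.32 in WT and 8.06, 8.10 and 8.13 in KO testes. The difference of the log2 changes was -0.46 ± 0.08 (SE) and did not pass (limma adjusted p = 0.0930).

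Among the cell type markers, Adipoq, the fat cell hormone adiponectin, differed between the ages in its genotype effect by 1.53 ± 0.19 (SE, limma adjusted p = 0.0304), being higher in KO testes at P20. Cd74, which escorts MHC class II molecules, had KO below WT arrays at P15 and above them at P20, a difference of 0.90 ± 0.20 (SE) that did not pass (limma adjusted p = 0.198).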

How the results depend on the processing

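Between genotypes 0 of the 6 genes passed at P15 and at P20 under all 26 alternatives, and 0 for the difference under all 25. The count of genes past the threshold from P15 to P20 in WT testes was 3, and ran from 0 to 3 when single arrays were left out. It was 1 without WT P15 replicate 1 or 2 and 0 without WT P20 replicate 3. The count in KO testes, 3, ran from 2 to 3. With the replicate block the counts were 0, 0, 0, 3 and 3 for the 5 comparisons, as without it. The labels state no pairing by replicate number, so the block has no basis in them. The Fdps fall in WT testes lost its call under cyclic loess (-0.49, limma adjusted p = 0.0668), and the Lss fall with the mean over its probes (-0.13, limma adjusted p = 0.0928), of which 1 was below background on all 12 arrays and 1 near it. The Idi1 rise in KO testes lost its call under 75th percentile scaling and in the fit of the compared groups (limma adjusted p = 0.151 and 0.0508). Cyp51 gained a call as a fall in WT testes in the fit of the compared groups (-0.41, limma adjusted p = 0.0332) and without WT P15 replicate 1 and KO P15 replicate 3 (-0.52, limma adjusted p = 0.0355). The cause of these shifts was not tested. Under 75th percentile scaling all probes had a median of 0.11 at P15 and the 6 genes one of -0.22, and Idi1 turned positive there (0.09). Srebf2 at P15 was 0.02 without WT P15 replicate 1, and Lss at P20 was -0.04 without KO P20 replicates 1 and 3. Of the 45 other pathway genes, 1 passed between genotypes at P20, 3 in the fit of the compared groups and 2 without WT P15 replicate 1 and KO P15 replicate 3. The shares of all probes called there were 1.04%, 1.2% and 1.1%. With age in KO testes 23 passed, and 13 without KO P20 replicates 1 and 3. Signal near background limits Idi1 and Ch25h.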
